A study of Mus musculus with 4 samples.

Results

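The genes described here lost most of their RNA in tongue epithelium of embryos labelled as lacking both catalytic subunits of Polycomb repressive complex 1. They were selected on the expression values of this same comparison. A gene was chosen by 3 conditions on its CPM, the read count divided by the library's total count and multiplied by 1e+06. The mean of the control libraries had to be at least 2 CPM, the mean of the 2KO-labelled libraries had to be at least 3-fold lower, and both 2KO-labelled libraries had to lie below both controls. Gene models with names of the form Gm and digits or ending in Rik were dropped, as were keratins, desmosomal cadherins, kallikreins, transglutaminases, S100 proteins, histones, collagens and further gene families, recognised by the start of their symbols. In all, 197 of 24453 genes met the rule. Of the 11792 genes with the required control level and an allowed name they were 1.67%, and 50 further genes within the same limits were dropped by name.

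RNA came from cells of mouse embryo tongues on day 16 of gestation, sorted for EpCAM after the part carrying the circumvallate papilla had been cut away. EpCAM is an adhesion molecule of epithelial cells. There were 2 libraries of each genotype, control and Ring1a/b 2KO, and the labels do not describe the control alleles further. The 2KO genotype is Ring1a-/- Ring1b flox/flox with Krt14-Cre: Ring1a (Ring1) is deleted in the germline, and Ring1b (Rnf2) is removed by Cre driven from the Krt14 promoter, which is active in the basal layer of stratified epithelium. Cells that never had Krt14 promoter activity, in themselves or in the cells they came from, would keep Ring1b. No label says whether replicates came from separate embryos or litters, so the spread between 2 libraries may be technical.

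The epithelium that covers the tongue renews from a basal layer. Cells that leave it stop dividing and switch on secreted and calcium-binding proteins, lipid-processing enzymes, protease cascades and their inhibitors, which together make a tough and water-tight surface. Polycomb repressive complex 1 attaches ubiquitin to histone H2A and is best known for keeping developmental genes silent.

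Counts per library ranged from 16256569 to 20624055, and the ribosomal RNA precursor Rn45s took 15.3% to 22.9% of them. Neither targeted gene was lower in the 2KO-labelled libraries. Ring1 had 8.92 and 8.98 CPM in the controls and 16.4 and 14.8 CPM in the 2KO-labelled libraries (log2 fold change 0.85, adjusted p = 0.101). Rnf2 had 33.6 and 53.8 CPM against 61.5 and 61.4 CPM (0.56, adjusted p = 0.126); without control replicate 2 its log2 fold change was 0.89 and passed the threshold. The labels do not give the deleted parts and reads from the remaining exons count toward the gene, so these counts do not check the deletion, and genotypes are given as labelled throughout. Epcam itself lay at 219 and 198 against 211 and 241 CPM. All 7 markers of oral epithelium had counts in every library, and their summed level was 12353 and 10324 CPM in the controls and 7263 and 7457 CPM in the 2KO-labelled libraries. The keratins among these markers, Krt5, Krt14, Krt13 and Krt4, were lower in both 2KO-labelled libraries, Krt5 at 6695 and 5751 against 4299 and 4470 CPM. The others changed less: Trp63 lay at 896 and 1006 against 818 and 1013 CPM, and Cdh1 at 919 and 763 against 723 and 705 CPM. Control replicate 2 stood apart in 6 markers of skeletal muscle, which summed to 338 CPM there and to 44.4 to 54.9 CPM in the other 3 libraries. Values below follow the order replicate 1, replicate 2, and are CPM unless FPKM, which also divides by transcript length, is named.

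Members lay between 2.02 and 347.6 CPM in the control mean, with a median of 6.55 CPM. The median ratio of the 2KO-labelled to the control mean was 0.241, and 28 members were more than 10-fold lower. Together they made up 4846 and 5027 CPM in the controls and 1341 and 1055 CPM in the 2KO-labelled libraries. In 51 members both 2KO-labelled libraries held less than 1 CPM, and 7 had no read in at least 1 of them. The rule fixes the direction and the separation of the groups, so neither is a finding. For comparison, both 2KO-labelled libraries lay below both controls in 36.9% and above both in 23.3% of all genes of that level and name. The totals behind these CPM include Rn45s, at 16.7% and 15.3% of counts in the controls and 22.9% and 20.2% in the 2KO-labelled libraries. A larger Rn45s share lowers the CPM of other genes. The edgeR fit described below, scaled by TMM, had a median log2 fold change of 0.01 over all genes tested. In a bulk sample, fewer cells of a type and less RNA per cell cannot be told apart.

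**Figure D1:**
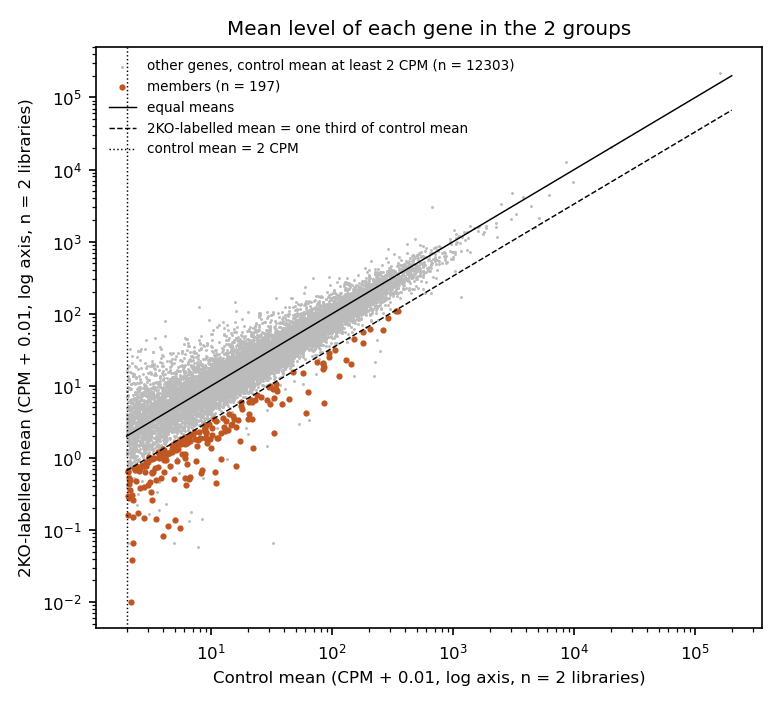
Each point is a gene, placed by its mean level in the 2 control libraries (horizontal, CPM + 0.01, log axis) and in the 2 2KO-labelled libraries (vertical, CPM + 0.01, log axis). The 197 members are orange and lie, by the rule, to the right of 2 CPM and under the dashed line at a 3-fold lower mean, with other genes of at least 2 CPM in grey.

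Members were sorted by role after their names and values had been seen, and 147 of them received one. To show what the group looks like at the DNA level, promoters of 5 members of the differentiated layers are printed, each 250 bases before to 50 bases after the gene start from RefSeq (GRCm38.p6), all on the plus strand. Capitals mark TGANTCA, the letters bound by AP-1, a family of paired factors active in keratinocytes, and TATAAA, the TATA box, each searched on both strands. The first 4 were picked because they hold a match, and Calm4 because it holds neither a match nor any CpG. The promoter of Sbsn is chr7:30751221-30751520, that of Dmkn, at the first of 3 listed starts, chr7:30763506-30763805, that of Psapl1 chr5:36203771-36204070, that of Serpinb2 chr1:107511173-107511472 and that of Calm4 chr13:3837507-3837806.
Sbsn: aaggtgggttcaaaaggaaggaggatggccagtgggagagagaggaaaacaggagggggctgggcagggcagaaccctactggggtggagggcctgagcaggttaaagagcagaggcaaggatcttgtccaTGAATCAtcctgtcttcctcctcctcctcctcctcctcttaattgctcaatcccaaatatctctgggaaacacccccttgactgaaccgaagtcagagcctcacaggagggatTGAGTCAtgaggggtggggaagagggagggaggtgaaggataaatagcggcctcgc
Dmkn: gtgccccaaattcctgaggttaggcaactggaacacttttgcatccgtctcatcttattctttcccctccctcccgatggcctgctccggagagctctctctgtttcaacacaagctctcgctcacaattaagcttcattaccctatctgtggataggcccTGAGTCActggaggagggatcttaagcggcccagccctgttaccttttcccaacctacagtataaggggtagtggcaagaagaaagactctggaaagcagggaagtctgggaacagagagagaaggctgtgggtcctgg
Psapl1: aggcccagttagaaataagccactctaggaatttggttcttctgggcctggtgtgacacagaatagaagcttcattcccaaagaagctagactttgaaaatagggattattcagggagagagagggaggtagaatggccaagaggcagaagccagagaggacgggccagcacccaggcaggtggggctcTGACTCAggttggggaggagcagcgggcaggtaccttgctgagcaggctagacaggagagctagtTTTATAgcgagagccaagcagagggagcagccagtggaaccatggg
Serpinb2: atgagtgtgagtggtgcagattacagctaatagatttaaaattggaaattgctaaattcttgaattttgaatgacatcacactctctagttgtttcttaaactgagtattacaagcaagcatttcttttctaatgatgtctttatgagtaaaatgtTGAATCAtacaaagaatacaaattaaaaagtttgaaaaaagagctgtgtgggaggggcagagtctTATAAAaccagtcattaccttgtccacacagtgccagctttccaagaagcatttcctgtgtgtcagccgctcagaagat
Calm4: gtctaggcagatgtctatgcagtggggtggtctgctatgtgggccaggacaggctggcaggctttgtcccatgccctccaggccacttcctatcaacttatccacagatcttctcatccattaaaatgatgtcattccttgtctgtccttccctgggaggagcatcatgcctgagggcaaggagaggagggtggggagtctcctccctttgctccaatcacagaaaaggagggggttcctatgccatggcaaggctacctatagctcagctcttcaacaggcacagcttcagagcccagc

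Sbsn holds the AP-1 letters at -119 and -6 from the gene start, Dmkn at -89, Psapl1 at -61 and Serpinb2 at -94. Serpinb2 also has the TATA letters at -29, while Psapl1 carries their reverse complement TTTATA at 4 bases after the start. No match overlapped another in these 5. A match describes letters and is neither a bound site nor a cause, and a window without one says nothing about the factor.

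The late-differentiation members were 9 genes, and all 9 were lower in 2KO-labelled replicate 2 than in replicate 1. Replicate 1 was the higher 2KO-labelled library in 59.9% of all members and in 71.1% of members above 20 CPM. In other genes of at least 2 CPM and the same name limits this share was 44.5%, and in those above 20 CPM it was 39.8%. Sbsn (suprabasin, a secreted protein of the suprabasal layers) had 166 and 119.5 CPM in the controls and 25.6 and 14.9 CPM in the 2KO-labelled libraries, a 7.05-fold lower mean. Dmkn (dermokine, a secreted protein of the same layers) had 157 and 143 CPM in the controls and 64.5 and 25.7 CPM in the 2KO-labelled libraries, 3.33-fold lower. In both genes 2KO-labelled replicate 2 was the lowest library and control replicate 1 the highest. Calm4 and Calml3 encode calmodulin-like calcium-binding proteins of differentiating keratinocytes. Calm4 had 69.7 and 50.99 CPM in the controls and 5.88 and 2.43 CPM in the 2KO-labelled libraries, 14.5-fold lower and the stronger loss of the pair. Calml3 had 94.6 and 73.02 CPM in the controls and 25.1 and 8.96 CPM in the 2KO-labelled libraries, 4.92-fold lower. Psapl1, a relative of the sphingolipid-activator precursor prosaposin, was nearer to the limit of the rule with 22.1 and 20.1 CPM in the controls and 8.37 and 4.48 CPM in the 2KO-labelled libraries. Both 2KO-labelled values of Psapl1 kept more than a trace of RNA, unlike Cysrt1, a small cysteine-rich protein, at 2.62 and 1.91 against 0.277 and 0 CPM.

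Pdzk1ip1, a small membrane protein, had 17.2 and 15.1 CPM in the controls and 3.71 and 1.61 CPM in the 2KO-labelled libraries, and Gsdma, a pore-forming gasdermin of epithelium, had 9.65 and 10.5 CPM in the controls and 2.94 and 1.22 CPM in the 2KO-labelled libraries. Their controls were nearly level and their 2KO-labelled replicates differed from each other by more than the controls did on a ratio scale. Anxa9, an annexin, is the exception among these genes, since its controls differed at 2.08 and 5.29 against 1.16 and 0.779 CPM. Whichever library was left out, 5 of the 9 stayed within the rule, against 84 of all 197 members. Krt13 and Krt4, keratins of the suprabasal oral epithelium that the rule leaves out by name, had lower values as well: Krt13 had 1344 and 991 CPM in the controls against 233 and 103 CPM in the other group. The part of the epithelial marker level in the loss of these genes was not tested.

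**Figure D2:**
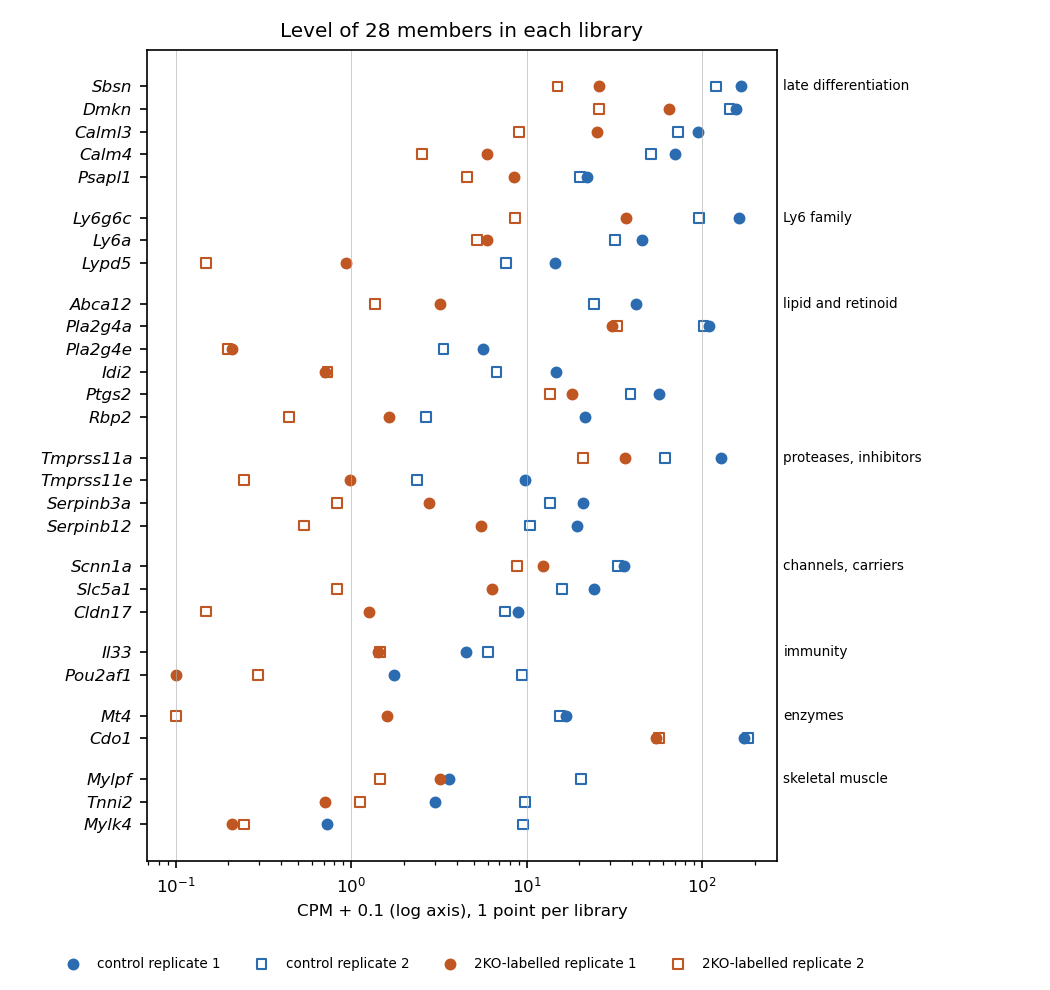
Levels of 28 members, 1 point per library (CPM + 0.1, log axis), grouped by role, with controls in blue, 2KO-labelled libraries in orange, replicate 1 filled and replicate 2 open. In the late-differentiation genes the open orange squares are lowest, and in the muscle genes the open blue squares stand away from the filled blue points.

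The Ly6 family, small proteins with a 3-fingered fold that are held at the surface by a lipid anchor or secreted, contributed 5 members. Each of the 5 met the rule again whichever library was left out, as did 84 of all 197 members. Ly6g6c had 162 and 95.96 CPM in the controls and 36.8 and 8.47 CPM in the 2KO-labelled libraries, 5.71-fold lower. Ly6a (Sca-1), a surface marker of many progenitor cells, had 45.3 and 31.9 CPM in the controls and 5.88 and 5.11 CPM in the 2KO-labelled libraries. Lypd5 had 14.5 and 7.57 CPM in the controls and 0.831 and 0.0487 CPM in the 2KO-labelled libraries, 25.1-fold lower, and was close to undetected in 2KO-labelled replicate 2. Ly6c1, a neighbour of Ly6a on chromosome 15, had 5.67 and 11.2 CPM in the controls and 0.665 and 0.681 CPM in the 2KO-labelled libraries, and here control replicate 2 was the higher one. Slurp1, a secreted member whose human counterpart is mutated in a palmoplantar skin disease, had 4.41 and 4.98 CPM in the controls and 1.44 and 0.925 CPM in the 2KO-labelled libraries. Exons of Ly6g6c and Slurp1 overlap those of Mpig6b and Them6 on the other strand, and without a known strand setting their reads cannot be told apart.

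Lipid and retinoid enzymes and carriers were the largest named role with 18 members. Abca12, the transporter that loads lipids into the secretory granules of keratinocytes, had 41.7 and 24.2 CPM in the controls and 3.104 and 1.27 CPM in the 2KO-labelled libraries, 15.1-fold lower. Of the cytosolic phospholipases A2, which cut fatty acids from membrane lipids, 3 were members. Pla2g4a had 109 and 102 CPM in the controls and 30.4 and 32.6 CPM in the 2KO-labelled libraries. Pla2g4e had 5.53 and 3.26 CPM in the controls and 0.111 and 0.0973 CPM in the 2KO-labelled libraries. Its mean was 42.2-fold lower, an imprecise ratio that rested on 4 reads in the 2KO-labelled libraries together. Pla2g4f beside it had 11.4 and 6.89 CPM in the controls and 1.497 and 1.65 CPM in the 2KO-labelled libraries. The loss thus ranged from 3.34-fold in Pla2g4a to near absence in Pla2g4e, whose exons overlap those of Gm13997. Ptgs2 (cyclooxygenase-2), which turns the fatty acid released by Pla2g4a into prostaglandin precursors and lies beside Pla2g4a on chromosome 1, had 56.5 and 39.00 CPM in the controls and 17.96 and 13.4 CPM in the 2KO-labelled libraries. Pla2g2f, a secreted phospholipase of epidermis, had 8.53 and 4.43 CPM in the controls and 1.39 and 2.19 CPM in the 2KO-labelled libraries.

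Among the other lipid genes, Them5, an acyl-CoA thioesterase, had 92.5 and 75.5 CPM in the controls and 27.99 and 12.6 CPM in the 2KO-labelled libraries. Idi2, an isomerase of the isoprenoid pathway, had 14.6 and 6.64 CPM in the controls and 0.6098 and 0.633 CPM in the 2KO-labelled libraries, 17.1-fold lower. Acer1, a ceramidase, had 4.99 and 4.55 CPM in the controls and 1.77 and 0.876 CPM in the 2KO-labelled libraries. Cyp4f39, which hydroxylates very long fatty acids for barrier lipids, had 21.8 and 18.9 CPM in the controls and 9.09 and 2.68 CPM in the 2KO-labelled libraries. Controls overlapped no 2KO-labelled library in any of them, as the rule requires, and replicate 2 was the lower 2KO-labelled library in Them5, Acer1 and Cyp4f39 but not in Idi2. Lipm, a lipase of keratinocytes, lay just inside the limit at 12.02 and 9.17 against 4.102 and 2.87 CPM, and Liph, a phosphatidic acid lipase, at 2.23 and 3.14 against 1.11 and 0.389 CPM.

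The retinoid members act at several points of vitamin A handling. Rdh12, Sdr16c5 and Sdr16c6 are retinol or retinal oxidoreductases, Rbp2 carries retinol inside cells, and Cyp26a1 breaks down retinoic acid. Cyp26a1 had 11.2 and 32.1 CPM in the controls and 2.55 and 4.33 CPM in the 2KO-labelled libraries, 6.29-fold lower, with control replicate 2 at 2.87-fold the level of replicate 1. Rdh12 had 16.5 and 16.98 CPM in the controls and 6.04 and 0.681 CPM in the 2KO-labelled libraries, so nearly all of its remaining RNA was in 1 of the 2 libraries. Rbp2 had 21.3 and 2.58 CPM in the controls and 1.55 and 0.341 CPM in the 2KO-labelled libraries, and most of its control mean came from replicate 1, which was 8.24-fold above replicate 2. Sdr16c5 and Sdr16c6 were low throughout, at 2.23 and 1.97 against 0.388 and 0.146 CPM and 3.83 and 4.12 against 1.88 and 0.7301 CPM. In the fit across all genes, Aldh1a2, which makes retinoic acid, rose from 0.388 and 2.65 to 24.9 and 24.2 CPM (log2 fold change 4.13, SE 0.61, adjusted p = 0.00167, edgeR). Crabp2, which carries retinoic acid to the nucleus, rose from 27.3 and 33.3 to 66.9 and 55.6 CPM (log2 fold change 1.07, SE 0.20, adjusted p = 0.00761). Neither is a member, and both calls held without each library.

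Proteases and their inhibitors gave 15 members. Tmprss11a, Tmprss11e and Tmprss11f, membrane-anchored serine proteases of squamous epithelium, lie in 1 cluster on chromosome 5. Tmprss11a had 129 and 61.1 CPM in the controls and 36.4 and 20.8 CPM in the 2KO-labelled libraries, with controls differing 2.102-fold. Tmprss11e had 9.75 and 2.28 CPM in the controls and 0.887 and 0.146 CPM in the 2KO-labelled libraries, 11.6-fold lower, and Tmprss11f 4.22 and 3.32 CPM in the controls and 0.277 and 1.95 CPM in the 2KO-labelled libraries. In Tmprss11e the lower control was above the higher 2KO-labelled library, as the rule requires, but the controls differed by 4.28-fold. Tmprss11d of the same family, which is no member, fell from 52.9 and 32.2 to 19.9 and 18.1 CPM (log2 fold change -1.12, SE 0.28, adjusted p = 0.0261), and its call ended without control replicate 1, at a log2 fold change of -0.64.

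Of the clade B serpins, inhibitors that act inside epithelial cells, 4 were members. Serpinb3a had 20.8 and 13.5 CPM in the controls and 2.66 and 0.7301 CPM in the 2KO-labelled libraries, 10.1-fold lower. Serpinb12, its neighbour on chromosome 1, had 19.2 and 10.4 CPM in the controls and 5.38 and 0.438 CPM in the 2KO-labelled libraries. Serpinb1a had 5.72 and 6.705 CPM in the controls and 0.388 and 0.438 CPM in the 2KO-labelled libraries, 15.04-fold lower with level controls. Serpinb2 (plasminogen activator inhibitor 2), whose promoter is printed above, had 39.8 and 20.7 CPM in the controls and 13.1 and 6.13 CPM in the 2KO-labelled libraries, and its exons overlap those of Serpinb10. Serpinb2 left the rule without control replicate 1 or without 2KO-labelled replicate 2. Cst6, a cystatin that restrains cathepsins in the upper layers, had 4.85 and 7.32 CPM in the controls and 1.39 and 0.827 CPM in the 2KO-labelled libraries, and Csta1 of the same class had 8.49 and 6.27 CPM in the controls and 2.22 and 1.36 CPM in the 2KO-labelled libraries. Capns2, a calpain small subunit, had 59.01 and 111 CPM in the controls and 17.7 and 18.2 CPM in the 2KO-labelled libraries, the reverse order of controls from that of the serpins Serpinb2, Serpinb3a and Serpinb12. Wfdc12, a small secreted inhibitor, had 4.85 and 1.599 CPM in the controls and 0.166 and 0.341 CPM in the 2KO-labelled libraries. Most of its control mean came from replicate 1. Without that library it missed the rule, since control replicate 2 alone was under 2 CPM, though above both 2KO-labelled libraries.

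The channels and carriers were 16 members, of which 7 met the rule whichever library was left out, against 84 of all 197 members. Scnn1a, the alpha subunit of the epithelial sodium channel, had 35.6 and 32.97 CPM in the controls and 12.3 and 8.76 CPM in the 2KO-labelled libraries. Scnn1g, the gamma subunit and no member, rose from 1.79 and 2.28 to 15.4 and 11.1 CPM (log2 fold change 2.76, SE 0.45, adjusted p = 0.00296). The lower level of Scnn1a was required by the rule. Slc5a1, a sodium-glucose carrier, had 24.1 and 15.9 CPM in the controls and 6.26 and 0.7301 CPM in the 2KO-labelled libraries. Cldn17, a tight-junction claudin, had 8.87 and 7.44 CPM in the controls and 1.16 and 0.0487 CPM in the 2KO-labelled libraries, 13.5-fold lower. Gja1, a connexin of the lower layers and no member, fell from 389.9 and 342 to 152 and 181 CPM (log2 fold change -1.09, SE 0.16, adjusted p = 0.00194), a smaller loss that kept it outside the rule. Slc28a3, a nucleoside carrier, lay at 8.097 and 11.9 against 2.05 and 0.681 CPM, and Slc6a14, an amino acid carrier, at 6.69 and 8.796 against 2.49 and 1.07 CPM. Kcna6, a potassium channel, differed 5.37-fold between the controls at 1.89 and 10.1 against 0.831 and 1.12 CPM, so its place among the members turned on control replicate 2.

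Of the 15 detoxification and small-molecule enzymes, Mt4, the metallothionein of squamous epithelium, had 16.7 and 15.4 CPM in the controls and 1.497 and 0 CPM in the 2KO-labelled libraries, 21.5-fold lower and without a read in 2KO-labelled replicate 2. Mt1, the general metallothionein and no member, rose from 71.6 and 82.2 to 120.3 and 169 CPM (log2 fold change 0.97, SE 0.19, adjusted p = 0.00876), although without 2KO-labelled replicate 2 its log2 fold change of 0.70 did not pass. Cdo1, which oxidises cysteine, had 174 and 183 CPM in the controls and 54.9 and 56.9 CPM in the 2KO-labelled libraries. Dio2, which activates thyroid hormone, had 13.04 and 9.47 CPM in the controls and 3.104 and 0.584 CPM in the 2KO-labelled libraries, and Fmo1, a flavin monooxygenase, 4.800 and 10.03 CPM in the controls and 0.665 and 1.12 CPM in the 2KO-labelled libraries. The rule set the order of the groups in these members, but the spread differed: controls of Cdo1 were within a few percent and those of Fmo1 were apart. Egln3, an oxygen-dependent hydroxylase of hypoxia-inducible factors, had 106 and 83.6 CPM in the controls and 31.7 and 18.9 CPM in the 2KO-labelled libraries. Fut2, which adds fucose to surface glycans, had 37.5 and 31.1 CPM in the controls and 10.6 and 7.398 CPM in the 2KO-labelled libraries. Fn3k, a kinase that removes sugar from proteins, had 0.339 and 7.69 CPM in the controls and 0 and 0.146 CPM in the 2KO-labelled libraries, and its control mean came almost wholly from replicate 2. With 3 reads in the 2KO-labelled libraries together, its control level was 46.0 times as high over the pooled reads (95% counting interval 15.4 to 226).

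Genes of immunity and defence made up 13 members. H60c, a skin ligand of the receptor NKG2D, had 38.7 and 31.00 CPM in the controls and 10.6 and 6.18 CPM in the 2KO-labelled libraries. Il33, an alarm cytokine stored in nuclei of epithelium, had 4.41 and 5.91 CPM in the controls and 1.33 and 1.36 CPM in the 2KO-labelled libraries. Lbp, which binds bacterial lipopolysaccharide, had 7.42 and 5.66 CPM in the controls and 0.554 and 0.438 CPM in the 2KO-labelled libraries, 13.2-fold lower. These 3 had controls that differed little and 2KO-labelled libraries well below them. Bpifc, of the same lipid-binding family as Lbp, had 15.2 and 29.3 CPM in the controls and 1.22 and 1.46 CPM in the 2KO-labelled libraries. Cd5 and Pou2af1 are known mainly from lymphocytes. Cd5 had 26.1 and 21.6 CPM in the controls and 5.65 and 9.297 CPM in the 2KO-labelled libraries, whereas the lymphocyte marker Cd3e had no read in either control. Pou2af1 had 1.65 and 9.35 CPM in the controls and 0 and 0.195 CPM in the 2KO-labelled libraries, mostly from control replicate 2. Of 11 leukocyte markers, Ptprc lay at 0.0485 and 0.615 CPM in the controls, and the summed level was 25.5 and 22.5 CPM there against 52.2 and 45.0 CPM, most of it from Cd68.

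Signalling and surface receptors gave 14 members, 8 of which met the rule whichever library was left out, against 84 of all 197 members. Procr, the endothelial protein C receptor, which also marks some epithelial progenitors, had 30.7 and 30.9 CPM in the controls and 3.94 and 7.35 CPM in the 2KO-labelled libraries, 5.46-fold lower. Smad9, a transducer of BMP signals, had 14.5 and 13.1 CPM in the controls and 2.05 and 2.82 CPM in the 2KO-labelled libraries. Controls of Procr and Smad9 were almost equal. Cd109, a co-receptor that dampens TGF-beta signals, had 212 and 195 CPM in the controls and 68.9 and 54.7 CPM in the 2KO-labelled libraries. Bcar3, an adaptor of integrin signalling, had 75.1 and 75.1 CPM in the controls and 18.9 and 24.2 CPM in the 2KO-labelled libraries, and Vsnl1, a calcium sensor, had 69.1 and 97.5 CPM in the controls and 24.3 and 16.4 CPM in the 2KO-labelled libraries.

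Several members with many reads act in the cytoskeleton and in adhesion. Tns4, a tensin found at focal adhesions, had 282 and 293 CPM in the controls and 79.5 and 93.7 CPM in the 2KO-labelled libraries. Mtus1, a microtubule-associated protein, had 254 and 275 CPM in the controls and 72.6 and 46.5 CPM in the 2KO-labelled libraries, and Myh14, a nonmuscle myosin heavy chain, had 197 and 164 CPM in the controls and 48.2 and 30.6 CPM in the 2KO-labelled libraries. Each was lower by a factor between 3.32-fold and 4.57-fold with controls that differed little. Tuba1a, an alpha-tubulin, lay just inside the limit with 235 and 431 CPM in the controls and 111 and 109.9 CPM in the 2KO-labelled libraries, and its controls were the ones that differed. Between genes, levels are comparable only per transcript length, and on that scale Fam25c, with no assigned role, was the highest member with 549 and 514 FPKM in the controls and 99.9 and 45.7 FPKM in the 2KO-labelled libraries. Dmkn followed with 280.0 and 265 FPKM in the controls and 136 and 52.6 FPKM in the 2KO-labelled libraries, and Sbsn had 212 and 149.7 FPKM in the controls and 43.98 and 19.9 FPKM in the 2KO-labelled libraries. All 3 exceeded Tns4 in FPKM in the controls, since Tns4 had 62.1 and 60.2 FPKM in the controls and 17.2 and 18.4 FPKM in the 2KO-labelled libraries.

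Gas5, a spliced noncoding RNA that hosts small nucleolar RNAs in its introns, had the most control reads of all members with 357 and 338 CPM in the controls and 111 and 105 CPM in the 2KO-labelled libraries, 3.21-fold lower. Its FPKM fell less, with 73.6 and 62.8 FPKM in the controls and 41.6 and 38.8 FPKM in the 2KO-labelled libraries, so it would not have been chosen on FPKM. Snord99 and Snora65, small nucleolar RNAs inside the genes Snhg12 and Rpl12, are uncertain: on the FPKM scale Snord99 was listed at 0 in every library, and Snora65 had 26.2 and 0 FPKM in the controls and 0 and 42.6 FPKM in the 2KO-labelled libraries. Of the 197 members, 187 were also lower without overlap on the FPKM scale, 163 were at least 3-fold lower there, and 100 met the same limits in full. A control mean of at least 2 FPKM was reached by 121.

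Several members without an assigned role were among the strongest losses. Rgag1 had 69.5 and 101.4 CPM in the controls and 5.88 and 5.65 CPM in the 2KO-labelled libraries, 14.8-fold lower, and Ankrd35 had 60.8 and 65.5 CPM in the controls and 11.6 and 4.62 CPM in the 2KO-labelled libraries. Rab17, a small GTPase of polarised epithelial traffic, had 2.23 and 2.15 CPM in the controls and 0.0554 and 0 CPM in the 2KO-labelled libraries, and its single read in the 2KO-labelled libraries makes the control level 84.7 times as high over the pooled reads (95% counting interval 14.8 to 3388). Teddm3 had 3.49 and 0.7997 CPM in the controls and no read in either 2KO-labelled library, and was at least 27.6-fold lower when 3 reads over the group are taken as the floor. Pir, an iron-binding nuclear protein, had 30.3 and 35.9 CPM in the controls and 8.04 and 5.26 CPM in the 2KO-labelled libraries. In Rgag1, Ankrd35, Rab17 and Pir both controls carried the level, but in Teddm3 replicate 1 carried most of it.

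The controls did not contribute equally to the choice. Between control libraries, members differed by a median absolute log2 ratio of 0.55, against 0.29 in the other genes of that level and name, and 28.4% of members were over 2-fold apart against 8.30%. These other genes had a higher median level, 26.2 against 6.55 CPM. At like levels the ratios were 0.62 in members and 0.65 in other genes at 2 to 5 CPM, 0.60 and 0.41 at 5 to 20 CPM, and 0.29 and 0.22 above. Members of the lowest level thus showed no gap in this median. The share over 2-fold apart was higher in members at each level: 41.1% against 30.3%, 29.1% against 12.6%, and 6.67% against 1.14%. The rule can pick a gene because 1 control was high, so this difference is a property of the choice as well. Roles leaned to different libraries. Of the 9 late-differentiation members 7 were higher in control replicate 1, as were 14 of 18 lipid and retinoid members and 11 of 15 proteases and inhibitors, while this held for 42.1% of all members and 41.6% of the other genes. The roles were assigned with the values known. All 8 members known from skeletal muscle and all 8 transcription regulators were higher in control replicate 2, by a median log2 ratio of 1.59 and 1.47.

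**Figure D3:**
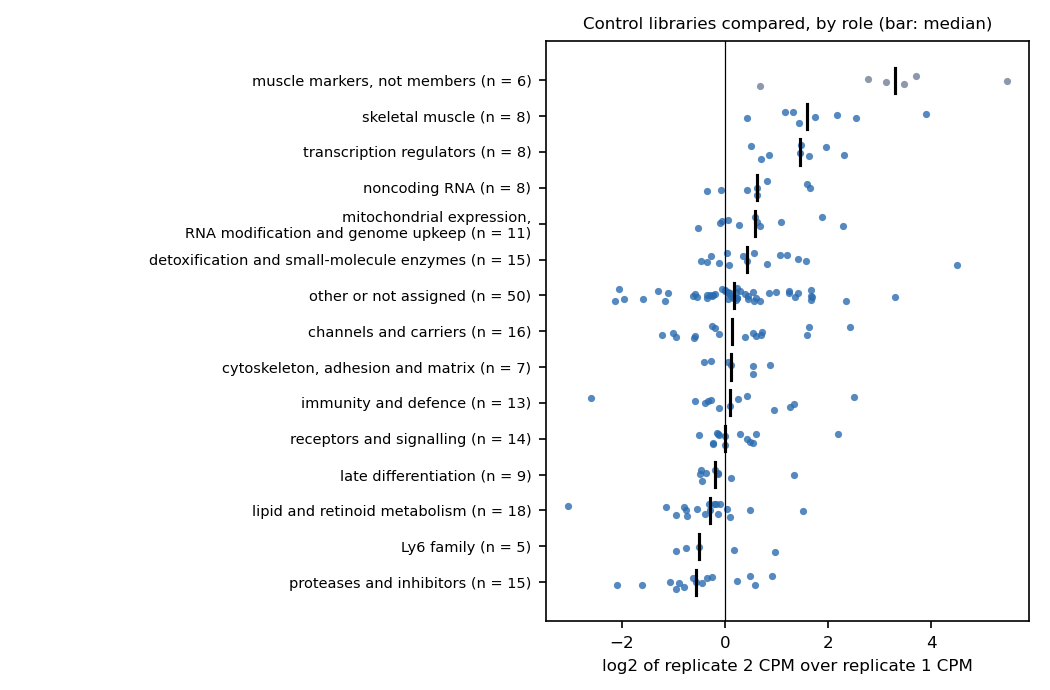
Each point is a gene, placed by the log2 ratio of its CPM in control replicate 2 to that in control replicate 1, with the role on the vertical axis and a bar at the median. The 8 muscle members and 8 transcription regulators lie to the right of 0, and of the 6 muscle markers that are no members all but Myog lie to the right of the median of the muscle members.

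Among the muscle members, Mylpf, a fast-muscle myosin light chain, had 3.49 and 20.4 CPM in the controls and 3.104 and 1.36 CPM in the 2KO-labelled libraries. Tnni2, a fast-muscle troponin, had 2.91 and 9.72 CPM in the controls and 0.6098 and 1.02 CPM in the 2KO-labelled libraries, and Mylk4, a muscle kinase, had 0.6303 and 9.41 CPM in the controls and 0.111 and 0.146 CPM in the 2KO-labelled libraries. In Mylpf the first control lay beside the 2KO-labelled libraries, and control replicate 2 alone was clearly above them. The muscle markers Ttn and Myh3 showed the same library: Ttn lay at 33.9 and 233 against 42.2 and 38.3 CPM, and Myh3 at 5.38 and 70.0 against 2.83 and 8.18 CPM. Without control replicate 2 only 2 of the 8 muscle members and 1 of the 8 transcription regulators met the rule. Outside these roles, Gucd1 differed 9.82-fold between controls, at 8.15 and 80.03 against 6.76 and 6.28 CPM. Eno1b did so 5.105-fold, at 4.07 and 20.8 against 3.603 and 3.504 CPM. The part of muscle RNA in the placement of these members was not tested.

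Without control replicate 2, 137 of the 197 members met the rule, and without control replicate 1, 169 did. Whichever of the 4 libraries was left out, 84 did. Such counts reuse the values that chose the members, and a library left out also loosens the condition of no overlap. They are a description and no test. The late-differentiation, Ly6, lipid, protease and channel roles kept 8 of 9, 5 of 5, 16 of 18, 14 of 15 and 13 of 16 members without control replicate 2. Without control replicate 1 the same roles kept 8, 5, 13, 9 and 13 members, so the lipid and protease roles lost more there. Just inside the limit of the rule lay Jakmip2, Chchd4, Tuba1a, Echdc3 and Lipm, with ratios of 0.333, 0.332, 0.331, 0.330 and 0.329. Just outside lay Tmem101 and Rsf1os1, both at 0.334, then Tprg, Slc6a2 and Xkr5 at 0.338, 0.340 and 0.342.

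Promoter sequence was not used by the rule. RefSeq held a promoter for 149 of the 197. The ratio of observed to expected CpG had a median of 0.382 in them, 0.779 in 9230 other genes of the same level and name, and 0.389 in all 27025 promoters of the table. A ratio under 0.35 was found in 45.6% of members, 9.88% of the other genes and 46.7% of all promoters, so members lay near the share of all promoters. The gap to other genes of like level was present at each level: 41.8% against 23.1% at 2 to 5 CPM, 45.9% against 11.8% at 5 to 20 CPM, and 51.5% against 6.10% above. By role, 6 of 7 late-differentiation promoters, 8 of 10 of immunity and 9 of 12 of proteases and inhibitors were CpG-poor in this sense, against 1 of 9 of mitochondrial expression and genome upkeep.

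**Figure D4:**
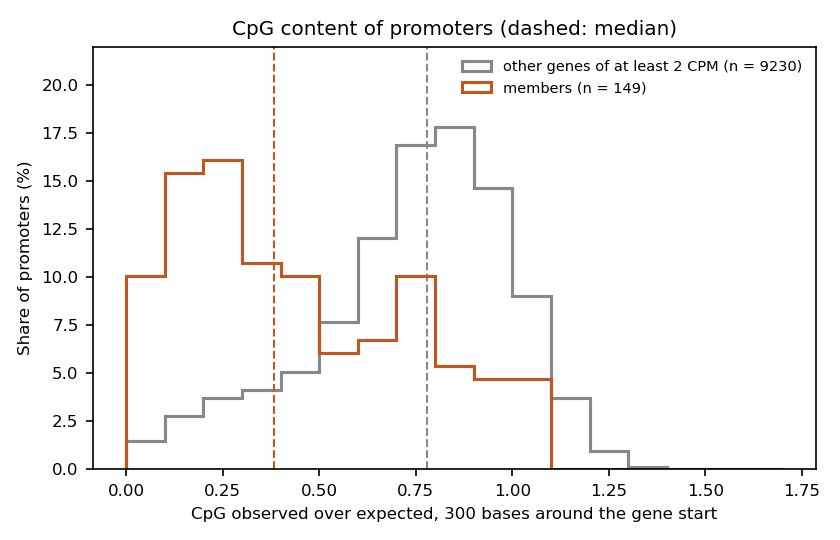
Share of promoters (percent, vertical) by the ratio of observed to expected CpG in the 300 bases around the gene start (horizontal), for 149 members in orange and 9230 other genes of at least 2 CPM in grey. Dashed lines mark the medians, 0.382 and 0.779.

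The AP-1 letters TGANTCA occurred in 19 of the 149 member promoters, or 12.8%, against 4.49% of the other genes and 7.93% of all promoters. By level the shares were 12.7% against 5.04% at 2 to 5 CPM, 4.92% against 4.41% at 5 to 20 CPM and 27.3% against 4.41% above, so the middle level showed almost no gap. By role they were in 4 of 7 late-differentiation promoters, namely Sbsn, Dmkn, Psapl1 and Cysrt1, and in 3 of 12 of proteases and inhibitors, namely Serpinb2, Serpinb12 and Tmprss11f. Fam25c and Bpifc also held them. TATAAA was present in 14.1% of members, 6.64% of other genes and 14.2% of all promoters, and at 2 to 5 CPM the order was the opposite with 7.27% against 8.50%. The letters AACCNGTT, bound by grainyhead-like factors, were found in 1.34%, 1.82% and 2.01%, and GGGNGNGG, bound by KLF factors, in 62.4%, 70.8% and 49.1%. The E-box CANNTG was found in 74.5%, 62.1% and 72.1%. Each motif was searched on both strands, and these shares are descriptions of the promoter sets without a test.

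Some members lay side by side. Of 193 members with a position, 29 (15.0%) had another member within 200 kb, against 8.11% of 11542 other genes of that level and name. Calml3 (chr13:3802896-3804316) and Calm4 (chr13:3837757-3838673) are one such pair, and Sbsn (chr7:30751471-30756134) and Dmkn (chr7:30763756-30781063) another, in mm10 coordinates of the Gencode M21 annotation. Further pairs were Ly6a and Ly6c1, Pla2g4e and Pla2g4f, Pla2g4a and Ptgs2, Sdr16c5 and Sdr16c6, and Serpinb3a and Serpinb12, besides the Tmprss11 cluster. Several of these pairs are members of 1 gene family, and pairs of unrelated genes such as Mylk4 and Serpinb1a occurred as well. Exons of 56 of the 193 overlapped another annotated gene, among those described Sbsn, Lipm, Acer1, Wfdc12, Cysrt1, Anxa9, Mtus1, Myh14, Tuba1a, Kcna6, Slc28a3, Dio2, Bcar3 and Gucd1, and their values are uncertain by the share of reads this moves.

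The fit across all genes tested 15336 of them with edgeR and called 754 lower (4.92%) and 1073 higher (7%) at an adjusted p of 0.05. It called 97 of the 196 members tested and did not call 99. Fn3k, with nearly all its reads in control replicate 2, was left out by the filter on low counts. The rule used the same contrast, so this count is given as a description only.

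The other genes of 10 functional lists, to which 54 members belong, were read against those shares. These other genes are by construction ones that missed the rule. In the cornified envelope and late-differentiation list 22 such genes were tested, and 8 fell and 1 rose (median log2 fold change -0.78, against 0.01 over all tested genes). Anxa8, an annexin of stratified epithelium, fell from 645 and 469.8 to 219.9 and 214 CPM (log2 fold change -1.31, SE 0.18, adjusted p = 0.0012). Ppl (periplakin), a scaffold of the cornified envelope, fell from 459 and 394 to 244 and 204 CPM (log2 fold change -0.88, SE 0.16, adjusted p = 0.00691). Lor (loricrin), the main envelope protein of epidermis, rose from 4.22 and 2.46 to 11.2 and 16.6 CPM (log2 fold change 2.09, SE 0.45, adjusted p = 0.0129), and that call ended without 2KO-labelled replicate 2, at 1.78. Without that replicate the lower calls of the whole list, members included, went from 15 to 8.

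In the Ly6 list 16 other genes were tested, of which 0 fell and 3 rose with edgeR. At an unadjusted p under 0.05 the lower count was 3, and it was 0 with DESeq2 and 2 with limma-voom. Ly6e had 78.8 and 70.8 CPM in the controls and 133 and 109 CPM in the 2KO-labelled libraries (log2 fold change 0.74, SE 0.18, adjusted p = 0.0236). Plaur, the urokinase receptor, had 22.98 and 11.5 CPM in the controls and 47.6 and 33.1 CPM in the 2KO-labelled libraries (log2 fold change 1.26, SE 0.34, adjusted p = 0.035), and Ly6h rose from 1 read in each control. Without 2KO-labelled replicate 1 none of the 3 was called. The lower calls of the whole list rose from 4 to 7 without control replicate 2 or without 2KO-labelled replicate 1.

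Of 52 other lipid genes 7 fell and 0 rose with edgeR, with a median of -0.17. At an unadjusted p under 0.05 there were 3 higher, with DESeq2 1 and with limma-voom 0. Acsl1, which activates long-chain fatty acids, fell from 194 and 185 to 64.03 and 66.3 CPM (log2 fold change -1.49, SE 0.16, adjusted p = 2.98e-04), just short of the rule. Fabp5, the fatty-acid-binding protein of keratinocytes, fell from 77.05 and 84.6 to 42.5 and 32.6 CPM (log2 fold change -1.05, SE 0.20, adjusted p = 0.0071). Without control replicate 1 the higher calls of this list went from 0 to 5. Among 36 other proteases and inhibitors 3 fell and 1 rose (median -0.21), but with DESeq2 5 were called lower and 5 higher, and with limma-voom 4 and 2. With edgeR the higher calls of the list were 4 without control replicate 1 and 0 without 2KO-labelled replicate 1. Among 48 other channels and carriers 3 fell and 5 rose (median -0.08), where the higher calls were 8 without control replicate 2 and 3 without 2KO-labelled replicate 1. Slc2a3, a glucose carrier, rose from 1.21 and 1.17 to 21.6 and 27.8 CPM (log2 fold change 4.42, SE 0.37, adjusted p = 7.68e-05), and Slco2a1, a prostaglandin carrier, from 43.8 and 27.9 to 83.98 and 122 CPM (log2 fold change 1.57, SE 0.26, adjusted p = 0.00369).

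**Figure D5:**
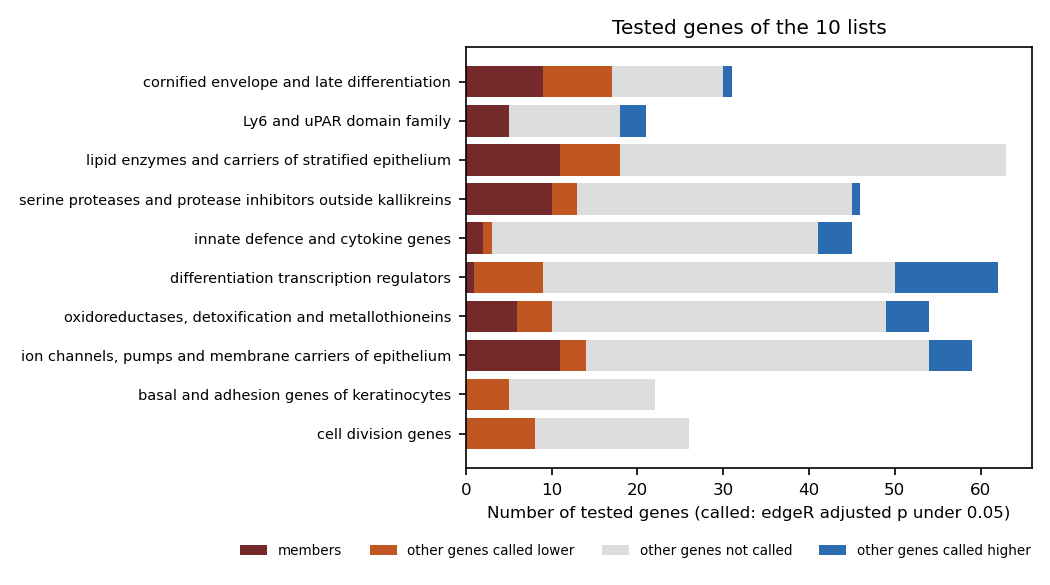
Number of tested genes in each of 10 functional lists (horizontal axis), split into members (dark red), other genes called lower (orange), other genes not called (grey) and other genes called higher (blue). The cornified list holds 9 members and 8 other lower genes among 31, and the lists of basal and cell division genes hold no member.

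The remaining lists held few members. Of 43 other innate defence genes 1 fell and 4 rose (median 0.25). Cxcl14, a chemokine of epithelium, rose from 3.05 and 1.91 to 28.5 and 31.8 CPM (log2 fold change 3.64, SE 0.34, adjusted p = 1.55e-04). The lower calls of that list, 2 with its members, were 4 without 2KO-labelled replicate 1 and 1 without 2KO-labelled replicate 2. Of 48 other oxidoreductases 4 fell and 5 rose (median -0.09), and the lower calls of the list went from 9 to 5 without 2KO-labelled replicate 2. Of 61 other transcription regulators of differentiation 8 fell and 12 rose (median 0.09). Pax9, a regulator of tongue papillae, fell from 409.5 and 481 to 191 and 201 CPM (log2 fold change -1.13, SE 0.15, adjusted p = 7.63e-04). Gata3, a regulator of epidermal differentiation, rose from 1.12 and 0.923 to 12.4 and 16.9 CPM (log2 fold change 3.88, SE 0.47, adjusted p = 5.49e-04).

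Basal and adhesion genes of keratinocytes had no member. Of 22 tested 5 fell and 0 rose (median -0.30), and the lower calls were 10 without control replicate 2. The higher count was 0 with edgeR, at an unadjusted p under 0.05, with DESeq2 and with limma-voom alike, and the same held for the cell division genes. Dsp (desmoplakin), which ties keratins to desmosomes, fell from 5692 and 4614 to 2244 and 1994 CPM (log2 fold change -1.23, SE 0.15, adjusted p = 4.91e-04). Cell division genes had no member either. Of 26 tested 8 fell and 0 rose (median -0.48), with 13 lower calls without control replicate 1 and 5 without 2KO-labelled replicate 1. Top2a, the topoisomerase of dividing cells, fell from 594 and 601 to 247 and 309 CPM (log2 fold change -1.05, SE 0.15, adjusted p = 0.00167). On the deposited FPKM values the calls of Ppl, Fabp5, Ly6e, Plaur, Mt1 and Tmprss11d did not pass, with limma and pseudocounts of 1 and 0.1.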

How the data were processed

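RNA of EpCAM-sorted tongue epithelium was amplified and sequenced as 100-nucleotide single reads, 2 libraries per genotype, per the labels' protocols. The authors deposited whole-number counts and FPKM values per gene and library; the submitters' processing notes name mm10, DESeq2 1.6.3, HTSeq 0.6.1, Cufflinks 2.2.1 and TopHat2 2.0.13. How strand was treated and which annotation served is not given in the sources used here.

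CPM values are counts divided by the column total and multiplied by 1e+06. One count was worth 0.0485 to 0.0615 CPM. Because the cDNA was amplified, intervals and floors describe counting error alone. Groups were tested on the deposited counts by edgeR 4.0.16 under R 4.3.3 (TMM, filterByExpr, quasi-likelihood test of genotype, two-sided, Benjamini-Hochberg over 15336 genes, threshold 0.05), which was tested on simulated data. Gene positions came from the mm10 annotation Gencode M21, which matched 24044 of 24453 symbols, and promoters from RefSeq. Alternatives were RLE and upper-quartile scaling, DESeq2 1.42.0, limma 3.58.1 (voom on counts, trend on log2 FPKM plus 1 or 0.1), other filters, a replicate block, other limits of the rule and each library left out.

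Members, roles and lists were chosen with earlier results of these data known. Named are members in a list, the 20 with the highest control level, the 20 with the lowest ratio, those nearest the limit or beside another member, and, of other list genes, up to 4 called per list by smallest p. Examples outside that rule, among them the muscle and receptor genes, were chosen after their values were seen. A few genes within that rule are not reported here.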

Additional observations from a re-analysis of the deposited data

How the results depend on the processing

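With only 2 libraries per group, 1 library decides many values, and members with 3 reads or fewer in the 2KO-labelled libraries have wide counting intervals or a bound only. Genes called lower numbered 1242 without a filter on low counts and 260 and 186 with limma on FPKM plus 1 and plus 0.1, and genes called higher 627 and 472 on FPKM. Members called lower were 61 and 50 on FPKM. Among list genes that are no members, 47 were called lower and 31 higher; the lower count was 73 without the filter and 16 and 11 on FPKM. Members by the rule numbered 661 at a limit of 2-fold, 75 at 5-fold, 124 at 5 CPM and 116 on FPKM, of which 100 were among the 197. With Rn45s left out of the column totals 191 genes met the rule, and 172 of them were among the 197. With TMM-scaled library sizes 183 met it, all of them among the 197. With each library left out in turn, genes called lower ranged from 537 to 1104, genes called higher from 839 to 1643, members called lower from 89 to 103, list genes that are no members from 31 to 67 lower and 21 to 52 higher, and genes meeting the rule from 195 to 348. The log2 fold change of Rnf2 ranged from 0.31 to 0.89 and passed only without control replicate 2. With the replicate number as a block, 880 genes were called lower and 1156 higher, 96 of them members and 60 and 35 list genes that are no members. Deviations of libraries sharing a number had a correlation of -0.0232, so the numbers were not taken to pair the samples. No direction reversed among the fold changes recomputed, which covered 90 of the 197 members: across alternatives 989 of their values stayed within the spread of the replicates and 139 moved. Snora65 was not among them, and its deposited FPKM had the opposite order, with means of 13.1 in the controls and 21.3 in the 2KO-labelled libraries.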
